A study of Homo sapiens with 10 samples.

Results

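Ribosome footprints were examined for 10 genes that mark epithelial or mesenchymal state in 2 pancreatic cancer lines, CFPAC-1 and PANC-1. The genes were chosen by name, 5 for each state, with earlier results of these data known. All 10 were present among the 20289 genes of the deposited tables. The epithelial genes were CDH1, EPCAM, ESRP1, CLDN4 and CLDN7, and the mesenchymal genes were VIM, CDH2, ZEB1, FN1 and SPARC. Both lines are established human pancreatic adenocarcinoma lines. The series holds 10 libraries in 4 groups. These are CFPAC-1 in 0.1% DMSO (n = 2), CFPAC-1 in 10 µM IKE (n = 2), PANC-1 in 0.1% DMSO (n = 2) and PANC-1 in 1 µM IKE (n = 4). IKE is imidazole ketone erastin, which blocks the cystine importer system xc- and thereby sensitizes cells to ferroptosis, a death driven by lipid peroxidation. The labels give the exposure as 24 h, while the protocol for the footprints speaks of 5 days, so the length of treatment is not settled. Dead cells and debris were washed away before lysis, so the treated libraries describe the cells that survived. Each line stands for 1 cell line only, the doses differ between the lines, and the labels call the replicates biological without saying how they were separated.

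Epithelial cells are held together by adherens junctions built on E-cadherin and by tight junctions built on claudins. In the epithelial-mesenchymal transition, transcription factors of the ZEB, SNAI and TWIST families repress these junction genes, and cells take up vimentin filaments, N-cadherin and a changed extracellular matrix. Pancreatic cancer lines range widely between these states, and mesenchymal state has been linked to sensitivity to ferroptosis in cancer cells. A footprint level reflects both how much of an mRNA is present and how often it is translated, and with no matched RNA-seq used here these cannot be told apart. In these bulk libraries fewer cells of a kind and less RNA per cell cannot be told apart either.

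ZEB and SNAI factors bind the letters CACCTG, so the 300-base windows around the annotated starts of the members were searched for it on both strands (CAGGTG is the same site read on the other strand). It is one form of the wider E-box CANNTG. RefSeq windows (GRCh38.p14, from 250 bases before to 50 after the start) were found for 7 of the 10 members. These are CLDN4, CLDN7, VIM, CDH2, ZEB1, FN1 and SPARC. The 4 windows below, printed 5′ to 3′ on the gene's strand with CACCTG or CAGGTG in capitals, are shown because they cover both claudins and the member with the widest difference between the lines. They lie at chr7:73830746-73831045 (+) for CLDN4, at chr17:7263164-7263463 (-) and chr17:7262429-7262728 (-) for CLDN7, and at chr5:151686866-151687165 (-) for SPARC.
CLDN4 start: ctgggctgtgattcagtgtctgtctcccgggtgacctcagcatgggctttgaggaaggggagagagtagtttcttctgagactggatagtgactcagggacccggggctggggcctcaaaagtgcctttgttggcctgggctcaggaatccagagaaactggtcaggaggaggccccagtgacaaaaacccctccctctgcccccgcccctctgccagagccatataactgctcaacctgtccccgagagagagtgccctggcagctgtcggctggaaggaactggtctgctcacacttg
CLDN7 outer start: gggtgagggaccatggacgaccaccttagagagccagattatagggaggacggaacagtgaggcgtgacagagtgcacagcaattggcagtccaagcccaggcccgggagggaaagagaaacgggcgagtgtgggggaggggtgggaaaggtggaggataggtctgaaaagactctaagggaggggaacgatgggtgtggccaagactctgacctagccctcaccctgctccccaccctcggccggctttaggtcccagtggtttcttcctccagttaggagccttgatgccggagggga
CLDN7 inner start: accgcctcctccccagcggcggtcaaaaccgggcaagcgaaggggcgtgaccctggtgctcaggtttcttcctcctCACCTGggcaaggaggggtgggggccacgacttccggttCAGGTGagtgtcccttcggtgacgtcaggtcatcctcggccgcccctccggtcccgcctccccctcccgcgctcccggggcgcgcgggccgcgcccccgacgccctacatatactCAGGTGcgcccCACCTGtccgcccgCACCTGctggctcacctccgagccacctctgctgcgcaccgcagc
SPARC start: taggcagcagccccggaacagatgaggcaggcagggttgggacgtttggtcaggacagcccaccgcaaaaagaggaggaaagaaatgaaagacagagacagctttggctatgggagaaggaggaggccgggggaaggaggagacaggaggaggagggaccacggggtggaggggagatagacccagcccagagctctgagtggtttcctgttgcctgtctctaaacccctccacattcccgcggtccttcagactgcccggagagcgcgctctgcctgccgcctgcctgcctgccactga

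The inner CLDN7 window held the motif 5 times, beginning 174, 135, 20 and 9 bases before the start and 5 bases after it. The outer CLDN7 window and the CLDN4 and SPARC windows held none. Of 35116 RefSeq promoter windows of this length, 20.6% held the motif at least once and 0.0940% held it 5 times or more. Among the other members, 2 of the 7 ZEB1 windows held it, up to 3 times, while the windows of VIM, CDH2 and FN1 held none. These matches describe the letters of the windows and are not measured binding sites.

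The values are FPKM, footprint fragments scaled to the length of the gene model and to the size of the library. How that length was set is not stated, so comparisons of level between genes are approximate. The number of genes above 0 ran from 12933 to 14424 per library. The steps of the low values placed the depth of the other CFPAC-1 libraries at 0.917 to 1.17 times that of CFPAC-1 DMSO replicate 1. PANC-1 IKE replicate 4 was placed at 0.210 times, PANC-1 DMSO replicate 1 and IKE replicate 3 each at 0.503 times, and IKE replicate 1 at 0.871 times. The settled PANC-1 depths were thus all below the CFPAC-1 depths. For 2 PANC-1 libraries the steps gave no settled depth, and the absolute depth is unknown. Replicates correlated at 0.979 to 0.981 in CFPAC-1, at 0.939 in PANC-1 DMSO and at 0.899 to 0.965 in PANC-1 IKE (Pearson, log2 scale, across genes), and no libraries were identical. PANC-1 IKE replicate 4 stood apart, with its 10 highest genes holding 23.1% of the summed FPKM against 8.51% to 16.2% elsewhere. Results for PANC-1 IKE are therefore given with and without it.

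**Figure D1:**
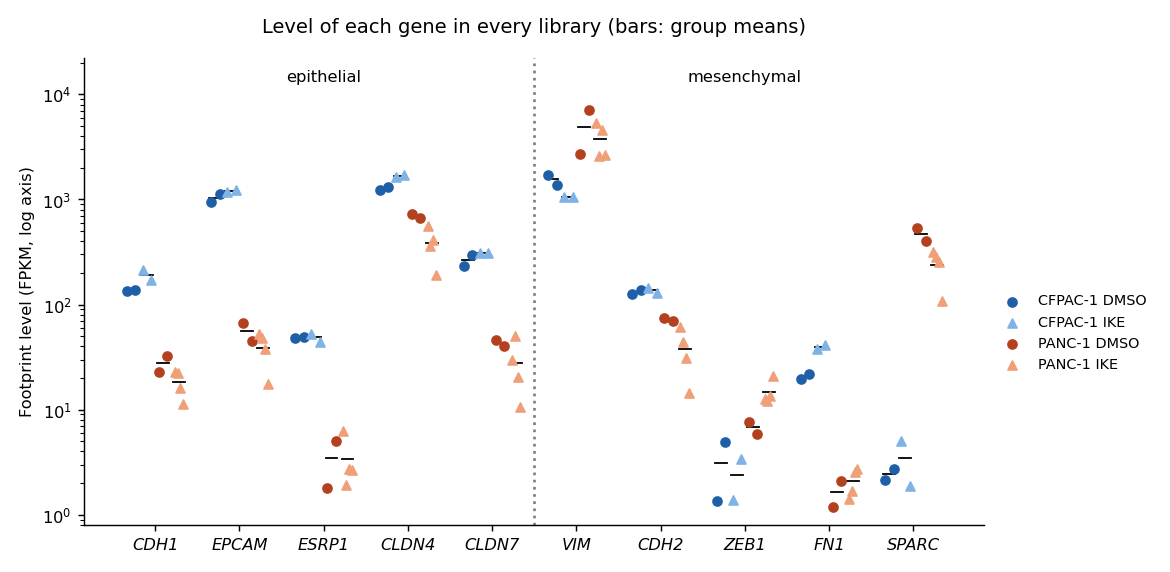
Footprint level (FPKM, log axis) of the 10 genes in each of the 10 libraries, with 1 point per library and the 4 groups as columns within each gene. The CFPAC-1 and PANC-1 points do not overlap for any of the 10 genes, and the gap is widest for SPARC.

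Without drug, the 2 lines differed widely in these genes, and not along the epithelial and mesenchymal lists alone. Of the 5 epithelial genes, 4 were called lower in PANC-1, namely CDH1, EPCAM, ESRP1 and CLDN7. SPARC and VIM were called higher in PANC-1, but FN1, also of the mesenchymal list, was called lower there. CLDN4, CDH2 and ZEB1 did not pass the test. Calls rest on limma fitted to log2(FPKM + 1) over 13125 genes and all 4 groups, with a Benjamini-Hochberg adjusted p below 0.05. By this rule 7 of the 10 members were called, against 33.6% of all genes tested. The members were chosen with earlier results of these data known, so this count does not test whether the list differs from other genes. Calls lower in PANC-1 made up 18.5% of all genes and calls higher 15.1%, and the 10 members held 5 and 2 of them. The median difference, PANC-1 minus CFPAC-1, was -2.58 (log2) over the epithelial genes and 1.05 over the mesenchymal genes, beside -0.03 over all genes tested. The mesenchymal median is the value of ZEB1, which was not called, and the mesenchymal values ran from -3.06 for FN1 to 7.08 for SPARC. Differences below, and the folds taken from them, are on the same log2(FPKM + 1) scale, which understates the change of low genes.

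EPCAM (ENSG00000119888, chr2:47369311-47387020), an epithelial adhesion protein, read 948 and 1117 FPKM in CFPAC-1 DMSO and 67.2 and 45.4 FPKM in PANC-1 DMSO. Every CFPAC-1 value lay far above every PANC-1 value. The difference of -4.19 ± 0.45 (SE, n = 2 against 2), an 18.3-fold lower level in PANC-1, had a limma adjusted p of 6.70e-05. By level EPCAM ranked 130 to 217 among all genes in the CFPAC-1 libraries and 2851 to 6587 in the PANC-1 libraries.

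ESRP1 (ENSG00000104413), a splicing factor that keeps epithelial isoforms, read 47.7 and 49.2 FPKM in CFPAC-1 DMSO against 1.79 and 5.07 FPKM in PANC-1 DMSO. The groups lay well apart, although the PANC-1 pair itself differed more in proportion than the CFPAC-1 pair. Its difference was -3.59 ± 0.48 (SE) with a limma adjusted p of 0.000294, and it ran from -4.15 to -2.69 over the 22 alternatives with the call kept in each. ESRP1 was the lowest epithelial member in all 4 groups.

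CDH1 (ENSG00000039068, chr16:68737292-68835537) encodes E-cadherin, the core of adherens junctions. Its levels were 134 and 136 FPKM in CFPAC-1 DMSO and 22.6 and 32.4 FPKM in PANC-1 DMSO. The 2 CFPAC-1 values were nearly equal and both lay above the PANC-1 pair. The difference was -2.28 ± 0.36 (SE), 4.85-fold lower in PANC-1, with a limma adjusted p of 0.000831. CDH1 was therefore lower but still measured in every PANC-1 library.

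The 2 claudins, membrane proteins of the tight junction, did not behave alike in size. CLDN7 (ENSG00000181885, chr17:7259903-7263213) read 233 and 298 FPKM in CFPAC-1 DMSO against 46.2 and 40.3 FPKM in PANC-1 DMSO. That difference was -2.58 ± 0.54 (SE), with a limma adjusted p of 0.00446. CLDN4 (ENSG00000189143, chr7:73830996-73832690) read 1231 and 1325 FPKM in CFPAC-1 DMSO against 731 and 662 FPKM in PANC-1 DMSO. The CLDN4 pairs did not overlap, but the difference of -0.87 ± 0.42 (SE; 95% interval -1.80 to 0.05) was not called, with a limma adjusted p of 0.134. CLDN4 passed in 6 of the 22 alternatives, among them a fit of the DMSO libraries alone (limma adjusted p = 0.0373) and the fit without PANC-1 IKE replicate 4 (0.0160). In PANC-1 DMSO it remained the second highest of the 10 members.

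SPARC (ENSG00000113140, chr5:151661096-151686915), a secreted matrix protein that binds collagen, showed the widest separation. It read 2.16 and 2.74 FPKM in CFPAC-1 DMSO and 530 and 407 FPKM in PANC-1 DMSO. The difference was 7.08 ± 0.51 (SE), 135-fold higher in PANC-1 on the FPKM + 1 scale, with a limma adjusted p of 5.86e-06. By mean FPKM the ratio was 191. SPARC ranked 500 to 1709 among all genes in the PANC-1 libraries and 10134 to 11887 in the CFPAC-1 libraries. Its size depended on how low values were handled, with a log2 difference between 5.98 and 7.52 over the 22 alternatives, and the call was kept in each.

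VIM (ENSG00000026025, chr10:17228241-17237593), the vimentin intermediate filament of mesenchymal cells, was abundant in both lines. It read 1728 and 1387 FPKM in CFPAC-1 DMSO against 2711 and 7144 FPKM in PANC-1 DMSO. The 2 PANC-1 values lay far apart, and the lower of them was still above both CFPAC-1 values. The difference was 1.51 ± 0.49 (SE), with a limma adjusted p of 0.0377. The call was lost in 10 of the 22 alternatives, among them the fit of the DMSO libraries alone (limma adjusted p = 0.0750). It was lost without PANC-1 DMSO replicate 2 (log2 0.81, adjusted p = 0.230), without either CFPAC-1 DMSO library (0.115 and 0.188) and without either CFPAC-1 IKE library (0.0663 and 0.0653). VIM ranked between 10 and 68 in the PANC-1 libraries and between 84 and 172 in the CFPAC-1 libraries.

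FN1 (ENSG00000115414, chr2:215360865-215436068), the matrix glycoprotein fibronectin, ran against its list. It read 19.5 and 21.6 FPKM in CFPAC-1 DMSO and 1.18 and 2.08 FPKM in PANC-1 DMSO. The difference was -3.06 ± 0.35 (SE), 8.32-fold lower in PANC-1 on the FPKM + 1 scale, with a limma adjusted p of 0.000105. By mean FPKM the ratio was 12.6. FN1 was near the floor in PANC-1, and its log2 difference ran from -3.63 with a pseudocount of 0.1 to -1.95 with one of 5, with the call kept in all 22 alternatives. The 2 matrix genes of the list, SPARC and FN1, were thus called in opposite directions between these lines.

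CDH2 (ENSG00000170558, chr18:27932879-28177130), or N-cadherin, read 126 and 137 FPKM in CFPAC-1 DMSO against 74.1 and 69.3 FPKM in PANC-1 DMSO. The pairs did not overlap, yet the difference of -0.86 ± 0.52 (SE; 95% interval -2.01 to 0.29) was not called, with a limma adjusted p of 0.234. It passed in 3 of the 22 alternatives, including the fit of the DMSO libraries alone (0.0384). ZEB1 (ENSG00000148516, chr10:31318417-31529804), a repressor of CDH1 and other epithelial genes, read 1.36 and 4.89 FPKM in CFPAC-1 DMSO and 7.63 and 5.91 FPKM in PANC-1 DMSO. The groups were apart by a narrow margin and the CFPAC-1 pair itself spread widely. The difference of 1.05 ± 0.50 (SE; 95% interval -0.05 to 2.15) had a limma adjusted p of 0.131. It was 0.39 without CFPAC-1 DMSO replicate 1 (adjusted p = 0.661) and 1.71 without replicate 2 (0.0538). Both cadherins were thus lower by value in PANC-1, with only CDH1 called.

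**Figure D2:**
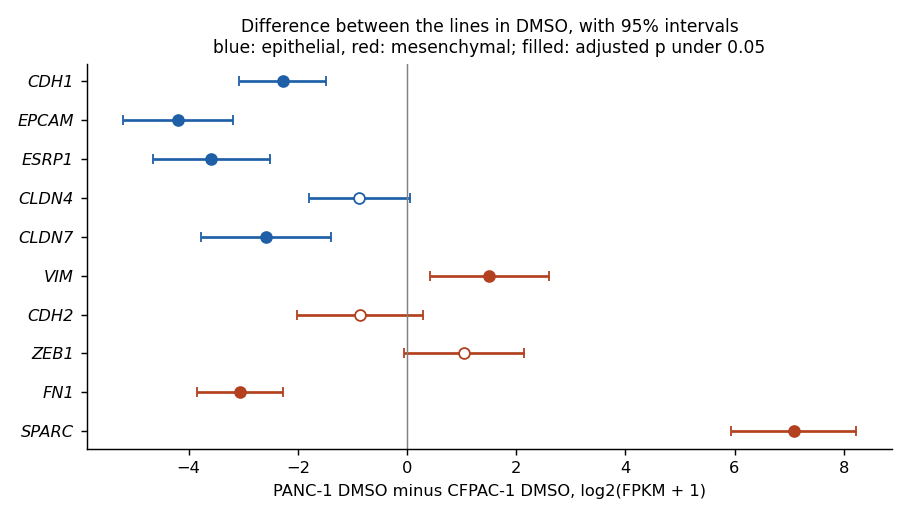
Difference between the lines in DMSO for each gene (PANC-1 minus CFPAC-1, log2(FPKM + 1) scale, bars are 95% intervals from limma, 2 libraries against 2). The called genes are EPCAM, ESRP1, FN1, CLDN7 and CDH1 below 0 and VIM and SPARC above 0, while CLDN4, CDH2 and ZEB1 were not called.

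The separation held across treatment. In all 10 members the 4 CFPAC-1 libraries and the 6 PANC-1 libraries did not overlap, against 44.4% of all genes tested. The way the members were chosen limits this count too. The smallest ratio between a library of one line and a library of the other was 21.4 for SPARC and 14.1 for EPCAM. It was 1.21 for ZEB1, 1.50 for VIM, 1.68 for CLDN4 and 1.70 for CDH2, the narrowest margins. The other 4 members lay between, from 4.14 for CDH1 to 7.18 for FN1. In these libraries 7 members were higher in CFPAC-1, the 5 epithelial genes with CDH2 and FN1, and 3 were higher in PANC-1.

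Ranked by FPKM in CFPAC-1 DMSO, VIM stood first, followed by CLDN4, EPCAM and CLDN7, then CDH1 and CDH2, whose values overlapped. ESRP1 and FN1 came next, and ZEB1 and SPARC were lowest and overlapped. In CFPAC-1 IKE, CLDN4 and EPCAM stood above VIM. In PANC-1 DMSO the order was VIM, CLDN4, SPARC and CDH2, then EPCAM and CLDN7, which overlapped, followed by CDH1 and ZEB1, with ESRP1 and FN1 lowest and overlapping. In PANC-1 IKE, CLDN4 overlapped SPARC, and each of EPCAM, CDH2, CLDN7, CDH1 and ZEB1 overlapped its neighbour in the order. The orders differ most in the place of SPARC at the low end in CFPAC-1 and above CDH2 in PANC-1.

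Ratios taken within a library do not depend on its scaling, although their size depends on the gene lengths used. CDH1 to CDH2, the balance of the 2 cadherins, was 0.996 to 1.07 in CFPAC-1 DMSO and 0.305 to 0.468 in PANC-1 DMSO. With IKE it was 1.32 to 1.49 in CFPAC-1 and 0.370 to 0.787 in PANC-1, where replicate 4 gave the highest value and the others reached 0.517. By FPKM, E-cadherin thus stood near N-cadherin in untreated CFPAC-1 and below it in every PANC-1 library. EPCAM to VIM was 0.549 to 0.805 in CFPAC-1 DMSO, 1.10 to 1.17 in CFPAC-1 IKE and 0.00635 to 0.0248 over the PANC-1 libraries. SPARC to FN1 was 0.0449 to 0.132 over the CFPAC-1 libraries and 0.111 or more in them without IKE replicate 2. It was 196 to 449 in PANC-1 DMSO and 39.4 to 225 in PANC-1 IKE, where the lowest value without replicate 4 was 100.4. These ratios are descriptions and were not tested.

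**Figure D3:**
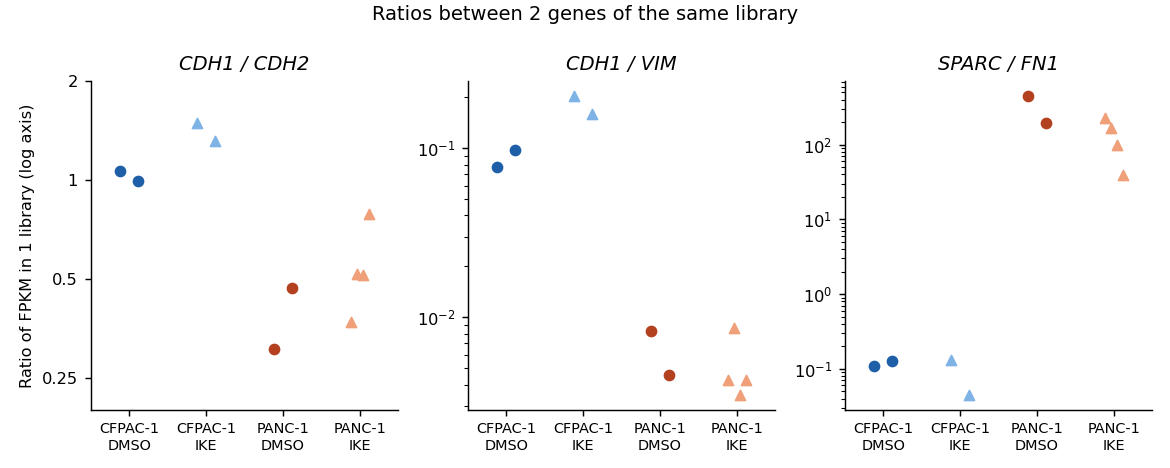
Ratios of footprint levels between pairs of members within each library (log axis), 1 point per library in the 4 groups. CDH1 to CDH2 lies at 0.996 or above in all CFPAC-1 libraries and at 0.787 or below in all PANC-1 libraries, and SPARC to FN1 separates the lines most.

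The genes whose pattern was most like CDH1 and VIM were sought among 10702 genes with a mean of 5 FPKM or more, by Pearson correlation of log2(FPKM + 1) over the 10 libraries. For CDH1 the closest were ENSG00000059377 (r = 0.994), at 37.8 to 62.1 FPKM in CFPAC-1 and 0 to 2.21 FPKM in PANC-1, and ENSG00000156869 (r = 0.990). The third gene for CDH1 was all but level with the second (r = 0.990). Among the members EPCAM was closest to CDH1 (r = 0.984), with 24 genes closer still. For VIM the closest were ENSG00000156508 and ENSG00000185627 (both r = 0.980). Among the members SPARC was closest to VIM (r = 0.856), with 342 genes closer. The points fall into the 2 lines, so these correlations mostly describe the gap between lines and the libraries share scaling and depth.

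In CFPAC-1, none of the 10 members was called with 10 µM IKE, against 0.00762% of all genes tested. FN1 showed the largest difference by value. It read 19.5 and 21.6 FPKM in DMSO and 37.8 and 41.4 FPKM in IKE, and every IKE value was above every DMSO value. The difference was 0.91 ± 0.35 (SE), with an unadjusted limma p of 0.0270 and an adjusted p of 1. FN1 was the only member of the 10 with an unadjusted p below 0.05 in the fit of all groups, where this held for 1.48% of all genes. CFPAC-1 libraries varied less than PANC-1 libraries, while the fit of all groups shares 1 spread. With each line fitted alone, the unadjusted p was smaller for 9 of the 10 members in CFPAC-1, all but ZEB1, and larger for 8 of the 10 in PANC-1, all but ZEB1 and SPARC. When only the CFPAC-1 libraries were fitted, 0.127% of all genes were called and again no member. There the unadjusted p was below 0.05 for 4 members, FN1, VIM, CLDN4 and CDH1, and for 12.3% of all genes, and the adjusted p was 0.153 for FN1 and 0.241 for VIM.

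The junction genes stood higher by value with IKE in CFPAC-1. CDH1 read 134 and 136 FPKM in DMSO and 215 and 169 FPKM in IKE, a difference of 0.50 ± 0.36 (SE). CLDN4 read 1231 and 1325 FPKM in DMSO and 1651 and 1692 FPKM in IKE, a difference of 0.39 ± 0.42. VIM went the other way, from 1728 and 1387 FPKM to 1057 and 1062 FPKM, a difference of -0.55 ± 0.49. None of these passed, and all had a limma adjusted p of 1 in the fit of all groups. IKE and DMSO libraries did not overlap for 6 of the 10 members, against 42.6% of all genes. The IKE values were above for 5 of these, CDH1, EPCAM, CLDN4, CLDN7 and FN1, against 20.2% of all genes. ESRP1, CDH2, ZEB1 and SPARC overlapped, with differences of 0.00, 0.06, -0.21 and 0.27.

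**Figure D4:**
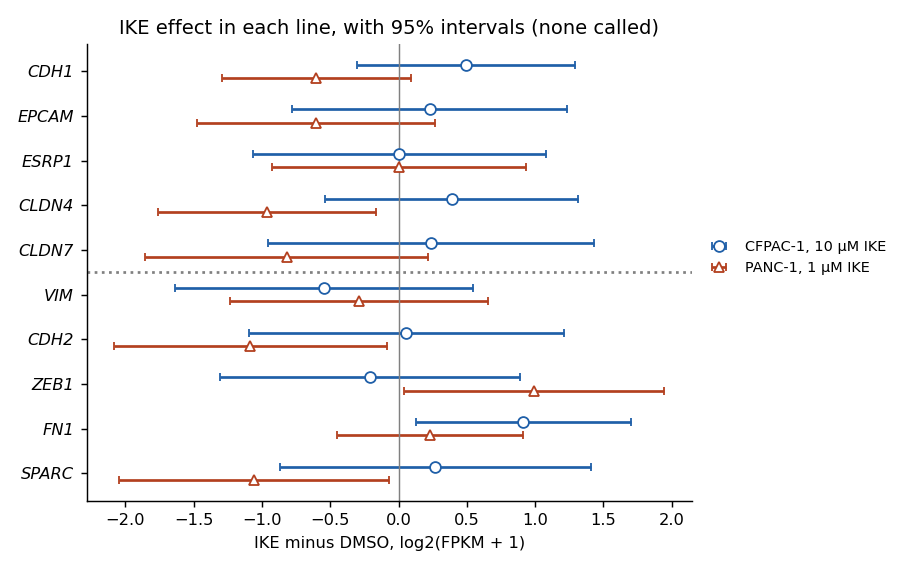
Difference between IKE and DMSO for each gene in CFPAC-1 (10 µM, 2 libraries against 2) and PANC-1 (1 µM, 4 against 2) on the log2(FPKM + 1) scale, with 95% intervals from limma. No gene was called in either line. FN1 in CFPAC-1 is at 0.91 and CLDN4, CDH2 and SPARC in PANC-1 are at -0.96, -1.08 and -1.06.

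In PANC-1, none of the 10 members was called with 1 µM IKE, against 0.0152% of all genes tested. The unadjusted limma p was below 0.05 for 4 members, CLDN4, CDH2, ZEB1 and SPARC, and for 17.6% of all genes. IKE and DMSO libraries did not overlap for the same 4 members, against 22.4% of all genes. The IKE values were below for 3 of them, against 12.2% of all genes. In a fit of the PANC-1 libraries alone 0.0159% of all genes were called and no member, and 3 members had an unadjusted p below 0.05, against 11.1% of all genes.

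ZEB1 was the member whose IKE values all lay above DMSO. It read 7.63 and 5.91 FPKM in DMSO and 12.6, 12.1, 13.4 and 20.7 FPKM in the 4 IKE libraries. The lowest IKE value was well above the higher DMSO value, and replicate 4 was the highest. The difference was 0.99 ± 0.43 (SE), with a limma adjusted p of 0.267, and without replicate 4 it was 0.83 with an adjusted p of 0.349.

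CDH2 and SPARC, N-cadherin and the matrix protein, stood below DMSO in each IKE library. It read 74.1 and 69.3 FPKM in DMSO and 61.7, 43.6, 31.0 and 14.4 FPKM in IKE. All 4 IKE values were below DMSO, but they spread widely among themselves. The difference was -1.08 ± 0.45 (SE), with a limma adjusted p of 0.251, and -0.70 without replicate 4 (0.238). SPARC read 530 and 407 FPKM in DMSO and 319, 281, 254 and 107 FPKM in IKE, again with replicate 4 lowest. Its difference was -1.06 ± 0.45 (SE), with a limma adjusted p of 0.258, and -0.71 without replicate 4 (0.292).

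CLDN4 read 731 and 662 FPKM in PANC-1 DMSO and 560, 363, 414 and 192 FPKM in IKE. Every IKE value was below both DMSO values. The difference was -0.96 ± 0.36 (SE), with a limma adjusted p of 0.215, and -0.67 without replicate 4 (0.176). The other epithelial genes overlapped between IKE and DMSO. CDH1 read 22.8, 22.6, 15.9 and 11.4 FPKM in IKE, a difference of -0.60 ± 0.31 with an adjusted p of 0.343. EPCAM read 52.1, 48.2, 38.1 and 17.4 FPKM, a difference of -0.60 ± 0.39 (0.450), and CLDN7 read 29.9, 49.7, 20.4 and 10.7 FPKM, a difference of -0.82 ± 0.47 (0.383). Replicate 4 was the lowest in each of these genes, and without it the differences were -0.41 for CDH1, -0.27 for EPCAM and -0.45 for CLDN7. ESRP1, VIM and FN1 had differences of 0.00, -0.29 and 0.23 and overlapped with DMSO, and without replicate 4 these were 0.06, -0.14 and 0.13.

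Replicate 4 was the lowest of the 6 PANC-1 libraries for 6 of the 10 members, while this held for 27.4% of all genes. A gene with the same lowest value in replicate 4 and another PANC-1 library was counted for the other, so that share is a lower bound. Relative to the DMSO mean, replicate 4 stood at 24.7% for CLDN7, 27.5% for CLDN4, 20.1% for CDH2 and 22.9% for SPARC, and at 305% for ZEB1. A set of 26 genes at 200 FPKM or more in every CFPAC-1 library, chosen for being listed at 0 in PANC-1 DMSO replicate 2, summed in replicate 4 to 0.870% of their CFPAC-1 level. In the other PANC-1 libraries, apart from that one, they summed to 0.00185% to 0.213%. The same share of the CFPAC-1 level would amount to 9.73 of the 17.4 FPKM of EPCAM in replicate 4, to 2.50 of the 10.7 FPKM of CLDN7 and to 1.42 of the 11.4 FPKM of CDH1. The part of that signal and of the low depth in the values of replicate 4 was not tested.

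**Figure D5:**
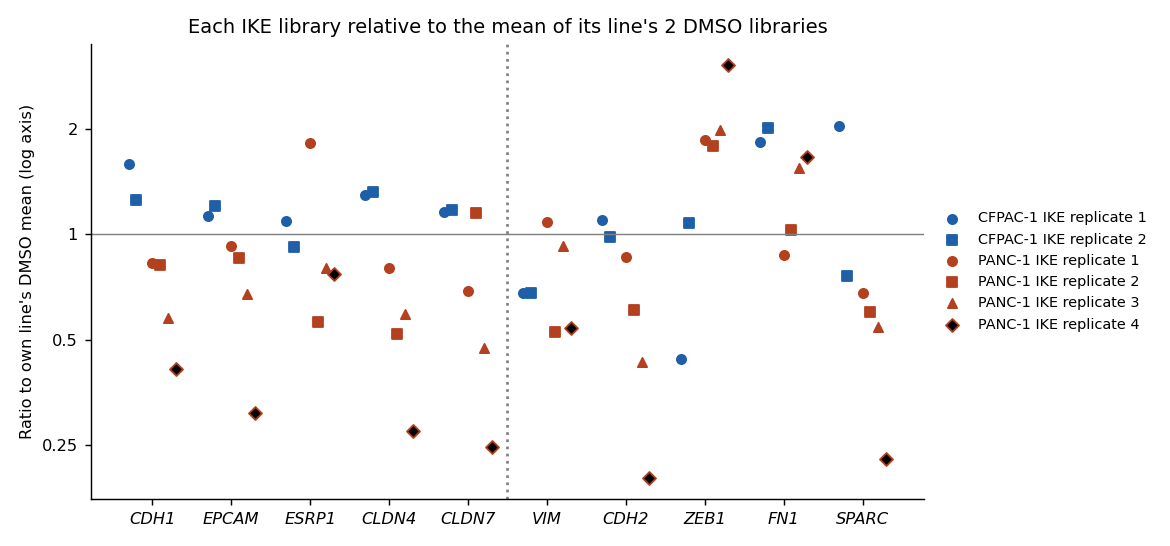
Level in each IKE library as a ratio to the mean of the DMSO libraries of the same line (log axis), 1 point per library for each gene. ZEB1 lies above 1 in all 4 PANC-1 libraries and CLDN4, CDH2 and SPARC lie below 1 in all 4, with PANC-1 replicate 4 farthest from 1.

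The difference of the 2 IKE effects, PANC-1 minus CFPAC-1, was called for none of the 10 members, against 0.0305% of all genes tested. It sets 1 µM against 10 µM, so line and dose cannot be told apart. The unadjusted limma p was below 0.05 for CLDN4 and CDH1, and for 8.41% of all genes. CLDN4 differed by -1.35 ± 0.55 (SE; adjusted p = 0.578) and CDH1 by -1.10 ± 0.47 (adjusted p = 0.589). CLDN4, for which all IKE values were above DMSO in CFPAC-1 and below in PANC-1, was the one member with non-overlapping groups in opposite directions. Of all genes, 20.2% lay above in CFPAC-1 and 12.2% below in PANC-1. The share with opposite directions was not computed, so whether CLDN4 is unusual in this is not known. EPCAM differed by -0.83 ± 0.60 and ZEB1 by 1.20 ± 0.65, and neither passed. Without PANC-1 IKE replicate 4 the differences were -1.05 for CLDN4, -0.90 for CDH1, -0.49 for EPCAM and 1.04 for ZEB1, and none was called.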

How the data were processed

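Ribosome footprints of 10 libraries were deposited by the authors as FPKM per Ensembl gene, per the file headers. Tools listed without roles in the submitters' processing notes are STAR, RSEM, Bowtie2 2.2.8, fastp and DESeq2, with the build GRCh38. The annotation is not given in the sources used here. Groups followed the labels. The values were taken as log2(FPKM + 1), filtered at a mean of 1 FPKM (13125 of 20289 genes) and fitted with limma 3.58.1 (trend, R 4.3.3) in 1 model of 4 groups, with 6 residual degrees of freedom. Contrasts were PANC-1 against CFPAC-1 in DMSO, IKE against DMSO in each line, and the difference of these. All p-values were two-sided and adjusted by Benjamini-Hochberg over all genes tested. With few replicates whose separateness is not stated, they measure the spread between these libraries. The fit was tested on simulated data with each line's own spread, where calls for IKE in PANC-1 held more unchanged genes than the threshold allows, as did, by less, calls between the lines at the largest fold tried. The genes named were the 10 members and genes most like CDH1 and VIM. The rule picked the 3 most alike for each, of which the first 2 are named. The members and lists were chosen with earlier results of these data known. Other pathway and marker lists were not analysed here, because no table pairing the files' gene IDs with symbols was used. The members' symbols were paired with their IDs by the rule that named them. Replicate numbers 1 and 2 were checked for pairing: the deviations of same-numbered libraries correlated at 0.0495 in CFPAC-1 and at -0.169 and -0.163 in PANC-1, so they were not treated as paired. Alternatives covered the pseudocount, filter, scaling, trend, library weights, samples in the fit, each library left out and a replicate block.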

Additional observations from a re-analysis of the deposited data

Results flagged for a closer look

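Within PANC-1 IKE, ZEB1 in replicate 4 (20.7 FPKM) lay far from the other 3 libraries, at 12.1 to 13.4 FPKM. The ratio of CDH1 to VIM in PANC-1 IKE replicate 2, 0.00868, also lay apart from the other 3, at 0.00348 to 0.00427. These were the 2 flagged of 16 checks by Dixon's criterion, which covered the members and ratios between them in PANC-1 IKE. Chance flags about 1 in 20 of separate checks. These checks share genes and libraries, so that rate does not carry over to them.

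CDH1, EPCAM and CLDN4 stood on opposite sides of the DMSO mean in the 2 lines in every IKE library, above it in CFPAC-1 and below it in PANC-1. For CDH1 and EPCAM the single IKE and DMSO libraries of PANC-1 still overlapped. The share of all genes that meet this rule was not computed. The difference of the IKE effects was -1.10 for CDH1, -0.83 for EPCAM and -1.35 for CLDN4 (log2). Its limma adjusted p was 0.589, 0.730 and 0.578, so none passed, and the doses differ between the lines.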

How the results depend on the processing

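The number of members called between the lines ran from 6 to 9 over 22 alternatives, and 0 members were called for IKE in either line or for the difference of the IKE effects in any alternative. CDH1, EPCAM, ESRP1, CLDN7, FN1 and SPARC kept their call between the lines in each. Calls over all genes between the lines, 4410 in the main setting, ran from 2474 (without CFPAC-1 DMSO replicate 1) to 5856 (without PANC-1 IKE replicates 2 and 4). For IKE they were 1 in CFPAC-1, with a range of 0 to 54 (library weights), 2 in PANC-1, with a range of 0 to 7 (no filter), and 4 for the difference, with a range of 0 to 5. Quantile scaling moved the median of all genes between the lines to 0.10 and the calls to 2354 higher and 2170 lower, from 1984 and 2426. With the replicate block, on the libraries numbered 1 and 2, 8 members were called between the lines and 0 elsewhere. VIM was not called there (limma adjusted p = 0.0599), CLDN4 (0.0429) and CDH2 (0.0414) were, and calls over all genes numbered 4688 between the lines. Uncalled values changed sign in 27 of 870 recomputed values, and the cause was not tested. Not all of them were close to 0 in the main setting, where VIM in PANC-1 was -0.29. For ESRP1 in PANC-1 these were -0.0049 with a pseudocount of 5 and -0.0331 with each library scaled to a common sum. For VIM in PANC-1 it was 0.17 without IKE replicates 2 and 4, and for FN1 in PANC-1 -0.0250 with the block. The difference of IKE effects for ESRP1 was 0.0142 with a pseudocount of 0.1, 0.00891 with quantile scaling, 0.0265 with library weights, 0.336 without IKE replicates 2 and 4, and 0.158 with the block. Leaving out each library gave -0.0276 to 0.141 for CDH2, -0.119 to 0.128 for ESRP1, -0.869 to 0.451 for ZEB1 and -0.265 to 0.806 for SPARC in CFPAC-1. In PANC-1 it gave -0.557 to 0.564 for ESRP1, -0.0199 to 0.479 for FN1 and -0.986 to 0.411 for VIM. For the difference of effects it gave -0.562 to 0.560 for ESRP1 and -0.440 to 0.958 for VIM. Where a group kept 1 library, that library was assumed to vary like the others. ZEB1, ESRP1, FN1 and SPARC stood at a few FPKM in one line, where few footprints lie behind a value.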

Other observations

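The 2 claudins stood in different proportion in the 2 lines. CLDN4 to CLDN7 was 4.44 to 5.41 over the 4 CFPAC-1 libraries, 15.8 to 16.4 in PANC-1 DMSO and 7.30 to 20.2 in PANC-1 IKE, where the lowest value came from replicate 2 and the other 3 libraries lay at 18.0 to 20.2. ESRP1 to ZEB1, a splicing factor of epithelial cells over a repressor of epithelial genes, was 10.1 to 38.4 over the CFPAC-1 libraries and 0.128 to 0.858 over the PANC-1 libraries, with 0.495 the highest without DMSO replicate 2. Neither ratio was tested.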
